A study of Saccharomyces cerevisiae with 5 samples.

Results

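The genes described here are 7 of the 6697 annotated coding sequences (CDS) in the RNAseq table. All 7 serve the uptake of iron bound to siderophores in budding yeast. They were chosen by systematic name, for what they encode, with earlier results of these data known. *FIT1* (YDR534C), *FIT2* (YOR382W) and *FIT3* (YOR383C) encode mannoproteins of the cell wall. *ARN1* (YHL040C), *ARN2* (YHL047C), *SIT1* (YEL065W) and *ENB1* (YOL158C) encode transporters. All 7 had reads in both libraries and passed the minimum of 20 reads in the higher library.

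The samples are wild-type *Saccharomyces cerevisiae* of strain BY4741, a haploid laboratory strain of the S288C background with auxotrophic markers. The poly(A)+ RNAseq comprises 1 library of cells given 1 mM CuSO4 for 4 hours and 1 library of cells in YPD, a rich glucose medium, without added copper. Both cultures share strain and medium, and the iron content of the medium is not given in the sources used here. γH2A, the form of histone H2A phosphorylated where replication forks stall, was mapped by ChIPseq beside input DNA. Its deposited peak list names no sample and was read as that of unstressed cells. A γH2A ChIP library of cells given CuSO4 was not analysed here.

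Siderophores are small molecules that bind ferric iron tightly. *S. cerevisiae* makes none of its own but imports those released by other microbes. The Fit proteins are mannoproteins held in the cell wall by a glycosylphosphatidylinositol (GPI) anchor and help to keep siderophore-bound iron at the cell. The transporters differ in the siderophores they carry: Arn1 takes ferrichromes, Arn2 triacetylfusarinine, Sit1 ferrioxamine and Enb1 enterobactin. A separate route, reductive uptake, frees and reduces the iron first, then imports it through Fet3, a multicopper ferroxidase that needs copper to work, and the permease Ftr1. Genes of both routes are activated by the transcription factor Aft1 when iron is scarce.

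The sequence that Aft1 binds has the core TGCACCC, and it was searched on both strands of the R64 genome in the 500 bp upstream of each CDS. All 7 genes hold it, as do 2.32% of the 5995 nuclear CDS with a RefSeq entry. *FIT2* holds 4 matches, *FIT1*, *FIT3* and *ENB1* hold 2 each, and *ARN1*, *ARN2* and *SIT1* hold 1 each, while only 12 of the 5995 CDS (0.200%) hold 2 or more. The match nearest to each CDS is shown because this short sequence is the feature that all 7 genes have in common. It is read on the strand where the core reads TGCACCC, with the core in capitals and 10 bases on each side, from the RefSeq R64 genome. A match describes the sequence and does not show that Aft1 was bound there.
FIT1: ttcattttttTGCACCCtttcctagaa
FIT2: ctaattatacTGCACCCagttagattc
FIT3: cccattttttTGCACCCtttcctagaa
ARN1: tttatcaaaaTGCACCCataaaagcag
ARN2: aactaagaacTGCACCCattttctgat
SIT1: cgaaccagatTGCACCCtcaaatgtgt
ENB1: ggcttacaatTGCACCCctctgtggct

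In R64 coordinates the *FIT1* site spans chrIV:1505066-1505092 (plus strand), the *FIT2* site chrXV:1059390-1059416 (minus) and the *FIT3* site chrXV:1061223-1061249 (plus). The *ARN1* site spans chrVIII:21215-21241 (minus) and the *ARN2* site chrVIII:10644-10670 (plus). The *SIT1* site spans chrV:27459-27485 (minus) and the *ENB1* site chrXV:21432-21458 (minus). The sites of *FIT1* and *FIT3*, on different chromosomes, have almost the same surroundings. Their upstream regions share an exact run of 25 bases, ttctaggaaaGGGTGCAaaaaaatg on the strand of the genes, in which the capitals mark the core read from the other strand. No other pair of the 7 upstream regions shares an exact run of more than 12 bases.

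Over the 13 matches the core lies between 125 and 441 bp from the CDS start, and all except that of *ARN2* (441 bp) and 1 of *FIT2* (325 bp) lie within 279 bp. The core reads in the direction of the gene at 7 sites and against it at 6. It is followed by T at 7 sites, A at 4 and C at 2. In a window of 250 bp 5 of the 7 genes hold TGCACCC (1.13% of the CDS), and in 800 bp all 7 do (3.77%). The shorter CACCC is present at all 7 and at 33.5% of the CDS. The related core GGCACCC is absent from the 500 bp upstream of all 7 genes and is present at 2.05% of the CDS. Outside the 7 genes, 127 CDS with at least 10 reads hold TGCACCC in this window. Their median log2 change with CuSO4 was 0.01 and 63 of them had a change below 0.

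**Figure D1:**
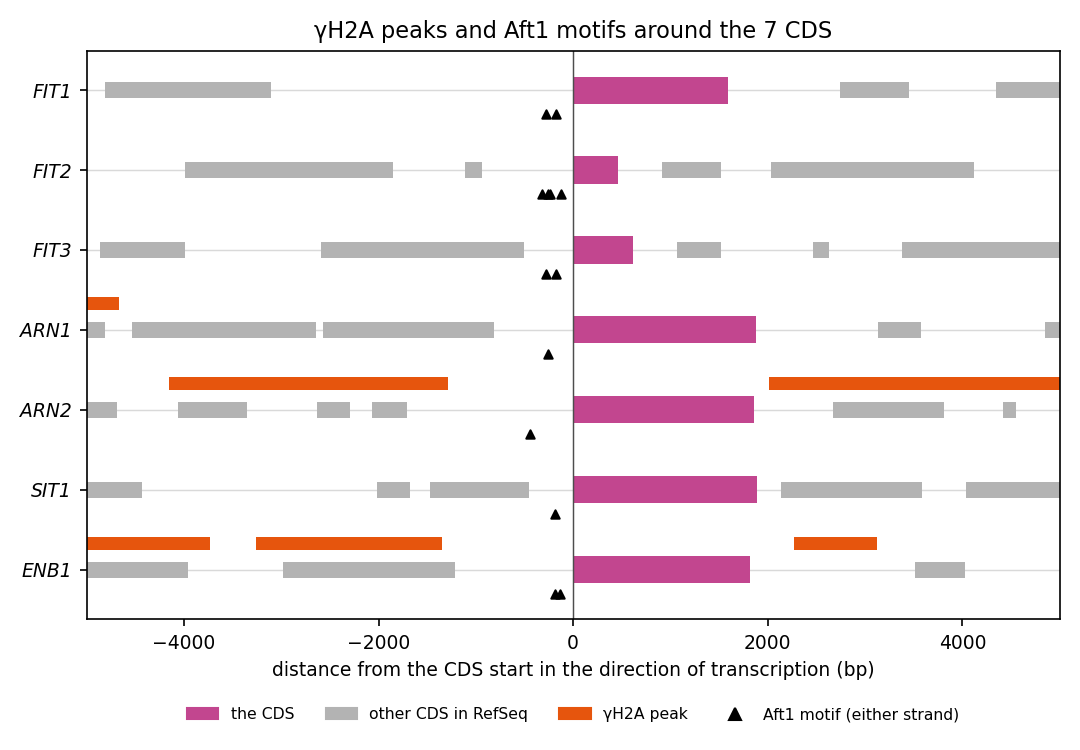
Position of γH2A peaks (orange), neighbouring CDS with a RefSeq entry (grey) and matches to the Aft1 core (triangles) around each of the 7 CDS (magenta), plotted as distance in bp from the CDS start in the direction of transcription. Matches lie between 125 and 441 bp upstream of all 7 CDS, and no peak lies within 1000 bp upstream of any of them.

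Each of the 7 CDS is a single exon in the annotation. On R64 *FIT1* lies at chrIV:1503314-1504900 (minus strand), *FIT2* at chrXV:1059531-1059992 (plus) and *FIT3* at chrXV:1060441-1061055 (minus). *ARN1* lies at chrVIII:19088-20971 (minus), *ARN2* at chrVIII:8351-10213 (minus), *SIT1* at chrV:27657-29543 (plus) and *ENB1* at chrXV:19491-21311 (minus). The transporter CDS are 1821 to 1887 bp long, and those of the mannoproteins 462 bp (*FIT2*), 615 bp (*FIT3*) and 1587 bp (*FIT1*).

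The 7 genes also share a position on the chromosome that the choice of genes did not use. They lie between 8.35 kb (*ARN2*) and 31.3 kb (*FIT2*) from the end of their chromosome. *ARN2*, *ARN1* and *ENB1* are within 20 kb of an end, as are 4.81% of nuclear CDS. *FIT1* and *SIT1* are also within 30 kb (7.14%), and all 7 are within 40 kb (9.45%). *FIT2* and *FIT3* face each other on chromosome XV, 448 bp apart, with the reductase genes *FRE5* beside *FIT3* and *FRE3* beyond *YOR381W-A* on the side of *FIT2*. *FIT3* and *FRE5* are transcribed away from each other across 508 bp. *ARN1* and *ARN2* lie on chromosome VIII, *SIT1* on V, *ENB1* at the left end of XV and *FIT1* on IV.

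None of the 7 CDS had at least 1 bp of a peak in the 1000 bp upstream of its start, which 6.64% of all CDS have. For *ARN2* the nearest upstream peak (3.60-fold enrichment) began 1289 bp from the CDS start, and for *ENB1* (2.06-fold) 1350 bp from it. The end of the *ARN2* CDS is 147 bp from a peak of 7.53-fold enrichment that begins at position 267 of the chromosome, and that of *ENB1* is 445 bp from a peak of 2.72-fold. Within 2000 bp upstream these 2 of the 7 thus had a peak, as had 7.75% of CDS, and within 5000 bp *ARN1* did too (11% of CDS). The remaining upstream peaks were 4670 bp (*ARN1*), 6520 bp (*SIT1*), 10037 bp (*FIT3*), 14645 bp (*FIT1*) and 72261 bp (*FIT2*) away. These peaks were read as those of 1 ChIP library of cells without added copper, which has no replicate.

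The mRNA libraries hold 5749810 reads on CDS with CuSO4 and 5572698 in YPD, and the deposited values are log2 reads per kb of CDS, scaled between libraries. With 1 library per condition a difference has no replicate check. Each change subtracts the YPD value from the CuSO4 value on the deposited log2 scale and is given with a 95% Clopper-Pearson interval that covers counting error only. These intervals leave out PCR copies and differences between cultures, so they are too narrow for a difference between cultures. They exclude 0 on the lower side for 10.1% of the 6078 CDS with at least 20 reads and on the upper side for 11.6%. Copper, culture differences and PCR copies as sources of these shares cannot be told apart with 1 library per condition. In bulk RNA, fewer cells expressing a gene and less RNA per cell cannot be told apart. The copper treatment shows in *CUP1-1*, the metallothionein gene, which had 4042 reads with CuSO4 and 496 in YPD (log2 change 2.98, and uncertain as to which of its repeated copies the reads come from), while the actin gene *ACT1* had 14144 reads with CuSO4 and 13398 in YPD, a change of 0.03 (-0.01 to 0.06).

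The 2 mannoprotein genes of chromosome XV were the most abundant of the 7 mRNAs per kb of CDS. *FIT3* had a log2 level of 10.65 with CuSO4 and 11.22 in YPD, above 91.5% and 94.1% of all CDS. *FIT2* had a level of 10.18 with CuSO4 and 10.56 in YPD, above 88.3% and 91.2% of CDS. The transporters formed a middle group, from *ENB1* (8.55 with CuSO4 and 9.19 in YPD) through *SIT1* (8.26 and 9.10) and *ARN1* (8.17 and 8.64) to *ARN2* (8.04 and 8.38). *FIT1* was far below them, at 5.17 with CuSO4 and 5.31 in YPD, above only 10.7% and 11.4% of CDS.

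The order of the 7 levels was the same in both libraries. In the CuSO4 library *SIT1* and *ARN1* differed by 0.09 (-0.08 to 0.26) and *ARN1* and *ARN2* by 0.13 (-0.05 to 0.31), so these neighbours could not be separated beyond counting error. In YPD the pair not separated was *ENB1* and *SIT1*, at 0.09 (-0.04 to 0.21). All other neighbours in the order differed beyond counting error. The widest step was the one down to *FIT1*: *ARN2* was 2.87 above it with CuSO4 and 3.06 above it in YPD. *FIT1* holds 2 matches to the Aft1 core and *ARN2* 1, and a relation between matches and level was not tested.

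**Figure D2:**
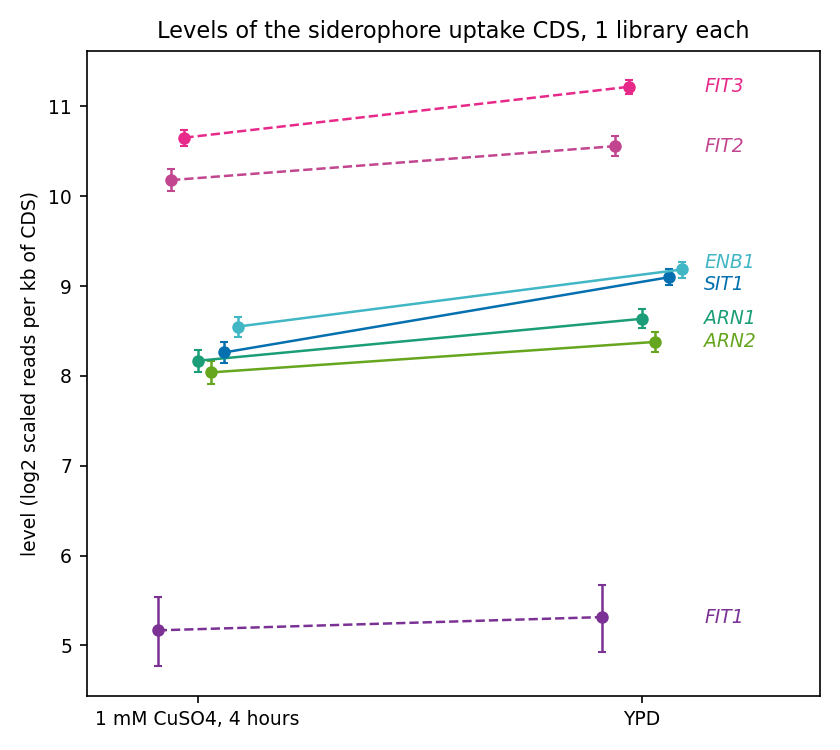
Level of each of the 7 CDS (log2 scaled reads per kb of CDS) in the library of cells given CuSO4 (left) and in the YPD library (right); points are single libraries and bars are 95% exact Poisson intervals of the reads. All 7 lines are lower on the CuSO4 side, with the steepest slope for *SIT1* and the shallowest for *FIT1*, and their order is the same in both libraries.

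All 7 genes had a lower level with CuSO4 than in YPD, none of them by 2-fold, and 46.8% of CDS with at least 20 reads had a change below 0. A change of 2-fold or more downward was seen in 0.658% of CDS with at least 20 reads, and upward in 0.526%. For 6 of the 7, all except *FIT1*, the counting interval of the change lay below 0, against 10.1% of CDS with at least 20 reads. Among the 2167 CDS with at least 500 reads, the depth at which those 6 genes were measured, that share was 19.7%. The median log2 change of the 7 was -0.47, from -0.84 to -0.15, where the median over 6363 CDS with at least 10 reads was 0.01. At 1.2-fold, a threshold chosen after the values were seen, the same 6 were lower, against 6.7% of CDS, and at 1.5-fold *SIT1* and *ENB1* were, against 1.53%. Among CDS within 40 kb of a chromosome end, where all 7 lie, the share was 16.6% at 1.2-fold and 6.38% at 1.5-fold.

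The 4 transporter genes together had 2293 reads with CuSO4 and 3346 in YPD, a log2 change of -0.59 (-0.67 to -0.52). That interval is for the summed reads only, and the changes of the 4 genes ran from -0.84 to -0.34. *SIT1*, the ferrioxamine transporter gene, had 579 reads with CuSO4 and 999 in YPD, a change of -0.84 (-0.99 to -0.69). This was the largest change of the 7, and its interval stops short of a 2-fold decrease. Of the 5697 CDS with at least 50 reads, 42 (0.737%), *SIT1* included, had a change as low. *ENB1*, the enterobactin transporter gene, had 682 reads with CuSO4 and 1024 in YPD, a change of -0.64 (-0.78 to -0.49), and 0.948% of CDS were as low.

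*ARN1*, the ferrichrome transporter gene, had 542 reads with CuSO4 and 724 in YPD, a change of -0.47 (-0.63 to -0.30). *ARN2* had 490 reads with CuSO4 and 599 in YPD, a change of -0.34 (-0.51 to -0.16). The start of the *ARN2* CDS overlaps *YHL046W-A* on the other strand by 233 bp, and since the use of strand in counting is not stated, reads there cannot be assigned to one of them. *YHL046W-A* had 73 reads with CuSO4 and 80 in YPD, and taking all of them off left the change of *ARN2* at -0.37. The other 6 CDS overlap no annotated CDS.

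The 3 mannoprotein genes together had 1583 reads with CuSO4 and 2150 in YPD, a log2 change of -0.49 (-0.59 to -0.40). *FIT2* and *FIT3* supply most of these reads, and the interval is for the summed reads, not for each gene. *FIT3* had 990 reads with CuSO4 and 1416 in YPD, a change of -0.57 (-0.68 to -0.45), and 1.18% of CDS with at least 50 reads were as low. *FIT2* had 536 reads with CuSO4 and 673 in YPD, a change of -0.38 (-0.54 to -0.21), and 2.33% of CDS were as low. *FIT1* had 57 reads with CuSO4 and 61 in YPD. Its change of -0.15 has an interval (-0.69 to 0.40) that takes in both 0 and the changes of 5 of the other 6 genes, so at this depth *FIT1* could not be told apart from those 5 or from no change.

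The sizes of the changes differed among the 7. Of the 21 pairs of genes, 8 had a difference in change whose 95% interval, not adjusted for the number of pairs, excluded 0. *SIT1* was in 5 of these 8: its change was lower than those of *FIT1*, *FIT2*, *FIT3*, *ARN1* and *ARN2* by between 0.27 and 0.69 on the log2 scale. *SIT1* and *ENB1* differed by -0.20 (-0.41 to 0.01), which counting error covers. *ARN1* and *ARN2*, the pair whose CDS are most alike among the transporters, differed by -0.13 (-0.37 to 0.11), and *FIT2* and *FIT3* by 0.19 (-0.02 to 0.39).

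No stretch of the 7 CDS is repeated elsewhere in the R64 genome at 95% identity or more. The longest single BLAST hit within the mannoproteins is 404 bp of *FIT1* and *FIT3* at 74.0% identity, and within the transporters 1332 bp of *ARN1* and *ARN2* at 64.4%. Aligned end to end with gaps, *FIT3* is the same as *FIT1* at 82.1% of 615 paired bases and *FIT2* the same as *FIT1* at 80.0% of 456. *FIT2* and *FIT3* are the same at 70.1% of 435. These shares leave out the gaps, and free placement of gaps along the longer *FIT1* raises them. The longest BLAST hit of *FIT2* was only 63 bp and lay in *MTC1*, so *FIT2* is not a close copy of *FIT1*. Base composition sets the mannoproteins somewhat apart, with G and C making up 45.2% (*FIT2*), 47.4% (*FIT1*) and 50.9% (*FIT3*) of the CDS, against 40.1% to 42.6% in the transporters and a median of 39.7% over all CDS. The summed reads of both classes had a change below 0, although *FIT1* by itself was not told apart from no change.

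The CDS on either side of the 7 had changes close to 0 or above it. Of these neighbours, 9 are not among the 7 and have at least 20 reads: *HSP31*, *FRE5*, *EFM1*, *COS8*, *YHL046W-A*, *HPA3*, *AVT2*, *CSS3* and *IMA2*. Their median change was 0.05, from -0.18 to 0.29. None had a counting interval below 0, against 10.1% of all CDS with at least 20 reads. Most had fewer reads than the 7 other than *FIT1*, so their intervals are wider. Those of *YHL046W-A* (-0.66 to 0.29) and *CSS3* (-0.44 to 0.43), for example, take in changes seen among the 7. The interval of *HSP31*, a methylglyoxalase gene beside *FIT1*, lay above 0 (0.29, from 0.07 to 0.52). Over the 540 CDS within 40 kb of a chromosome end that had at least 10 reads, the median change was 0.02, and 12.1% of those with at least 20 reads had an interval below 0. The neighbours *YDR535C*, *YOR381W-A* and *YHL041W* had at most 6 reads.

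On chromosome XV *FIT2* and *FIT3* lie near reductase genes. *FRE5*, which encodes a putative reductase of the Fre family, had 202 reads in each library and a scaled change of -0.05 (-0.34 to 0.24). *FIT3*, whose start faces that of *FRE5* across 508 bp, differed from it by -0.52 (-0.83 to -0.20). Both of the *FIT3* matches to the Aft1 core lie in this shared intergenic stretch, so they are upstream of both genes. *FRE3*, a reductase gene for siderophore-bound iron, had 123 reads with CuSO4 and 144 in YPD, a change of -0.28 (-0.64 to 0.08). *FIT2* and *FRE3* differed by -0.10 (-0.50 to 0.30), within counting error.

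**Figure D3:**
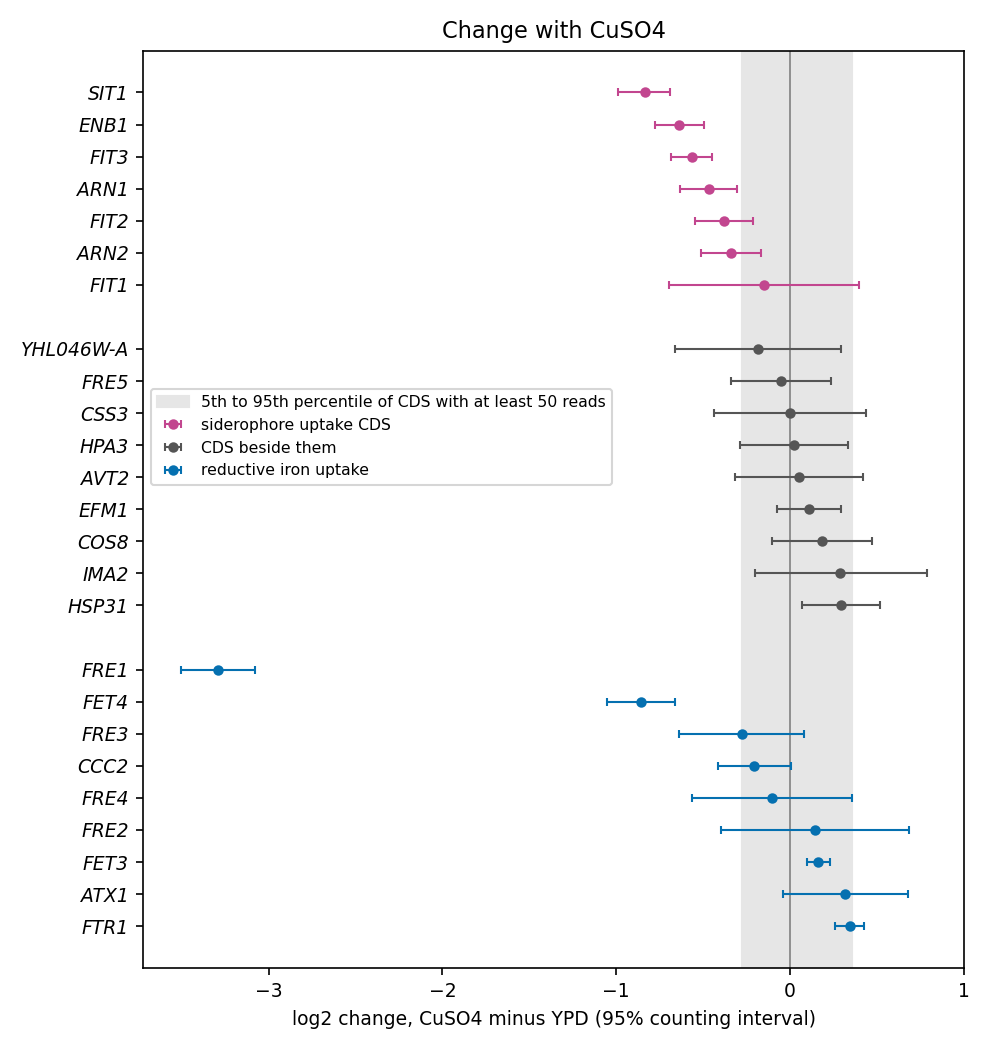
Log2 change (CuSO4 minus YPD) with its 95% counting interval for the 7 siderophore uptake CDS, the 9 CDS beside them with at least 20 reads, and the reductive uptake genes that are not among those neighbours; the grey band is the 5th to 95th percentile of the 5697 CDS with at least 50 reads (-0.27 to 0.36). All of the 7 except *FIT1* lie to the left of the band, as do *FRE1*, *FET4* and, just at its edge, *FRE3* (-0.28), whereas none of the neighbours does.

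*FTR1* and *FET3* of the reductive route had changes above 0. *FTR1*, the iron permease gene, had 2606 reads with CuSO4 and 1985 in YPD, a log2 change of 0.34 (0.26 to 0.43). *FET3*, the ferroxidase gene, had 3990 reads with CuSO4 and 3442 in YPD, a change of 0.16 (0.10 to 0.23). Both changes lay within the range of most CDS (-0.27 to 0.36) but in the direction opposite to the 7. The difference in change from *FTR1* ran from -1.18 (-1.35 to -1.01) for *SIT1* to -0.68 (-0.88 to -0.49) for *ARN2* over 6 of the 7, with 0 outside each interval. For *FIT1* it was -0.49 (-1.04 to 0.06), which takes in 0. The difference from *FET3* also excluded 0 for all except *FIT1*. *FTR1* holds 2 matches to the Aft1 core and *FET3* 1.

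Over the 10 genes of reductive uptake the median change was -0.08, and 6 of the 10 had a change below 0. The counting interval lay below 0 for 2 and above 0 for 2, against 10.1% and 11.6% of CDS with at least 20 reads. A 2-fold decrease was seen for 1 of the 10, *FRE1*, and a 2-fold increase for none. Of all CDS with at least 20 reads, 0.658% were at least 2-fold lower and 0.526% at least 2-fold higher. *FRE1*, a metal reductase gene that the copper-sensing factor Mac1 also activates, had 200 reads with CuSO4 and 1888 in YPD, and it is the only one of the 10 without TGCACCC in the 500 bp upstream. Of the 6 Mac1 targets, *FRE1* among them, 5 were at least 2-fold lower with a list median of -1.68: *FRE1* (-3.29), the copper transporter gene *CTR1* (-3.22), *FRE7* (-1.83), *IRC7* (-1.53) and *REE1* (-1.01). None of the 6 holds the Aft1 core. *FET4*, a low-affinity transporter of iron and copper, had 339 reads with CuSO4 and 593 in YPD, a change of -0.86 (-1.05 to -0.66). The change of *SIT1* minus that of *FET4* was 0.02 (-0.23 to 0.27).

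Among 16 genes of vacuolar iron and intracellular iron handling, none of the 15 with at least 20 reads was 2-fold higher or lower, and the median change was -0.10, with 14 of the 16 below 0. The lowest with at least 50 reads was *TIS11*, which encodes the factor that degrades mRNAs of iron-using proteins when iron is scarce. It had 141 reads with CuSO4 and 194 in YPD, a change of -0.51 (-0.83 to -0.19). The highest was *CCC1*, the vacuolar iron importer gene, at 0.11 (-0.10 to 0.32). Of these 16 genes, 3 had a counting interval below 0 and none had one above 0. Among all CDS with at least 20 reads these shares were 10.1% and 11.6%, and 46.8% had a change below 0.

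The 11 iron regulators and cofactors had a median change of -0.01 and none was 2-fold higher or lower. *AFT1* had 510 reads with CuSO4 and 585 in YPD, a change of -0.25 (-0.42 to -0.07). Its paralogue *AFT2* had 278 reads with CuSO4 and 236 in YPD, a change of 0.19 (-0.07 to 0.44). The extremes of the list were *BOL1*, a mitochondrial iron-sulfur assembly factor gene, at 0.38, and *HDA1*, a histone deacetylase gene, at -0.33. These are mRNA values and say nothing of whether the Aft1 protein was active.

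Other cell wall mannoproteins went both ways. Over 30 such genes the median change was -0.07, with a counting interval below 0 for 11 and above 0 for 8. Among all CDS with at least 20 reads, 10.1% had an interval below 0 and 11.6% one above 0. At 500 reads or more, 19.7% had an interval below 0, and many of the 30 were measured at such depth. The lowest with at least 50 reads was the flocculin gene *FLO1*, at -0.68 (-1.07 to -0.30). The *TIR* genes, which encode mannoproteins of the wall of anaerobic cells, had changes of -0.58 (*TIR1*), 0.04 (*TIR2*), -0.65 (*TIR3*) and -0.48 (*TIR4*). The only one past 2-fold among the 29 with at least 20 reads was another flocculin gene, *FLO9*, which had 134 reads with CuSO4 and 60 in YPD, a change of 1.11. It shares near-identical repeats with *FLO1* and *FLO5*, so the counts of *FLO9* and *FLO1* are uncertain. None of the 30 holds TGCACCC in the 500 bp upstream, nor do *GEX1* and *GEX2*, the relatives of the siderophore transporters that exchange glutathione. *GEX1* had 19 reads with CuSO4 and 22 in YPD and *GEX2* had 51 with CuSO4 and 35 in YPD, and as they are close copies of each other the split between them is uncertain.

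**Figure D4:**
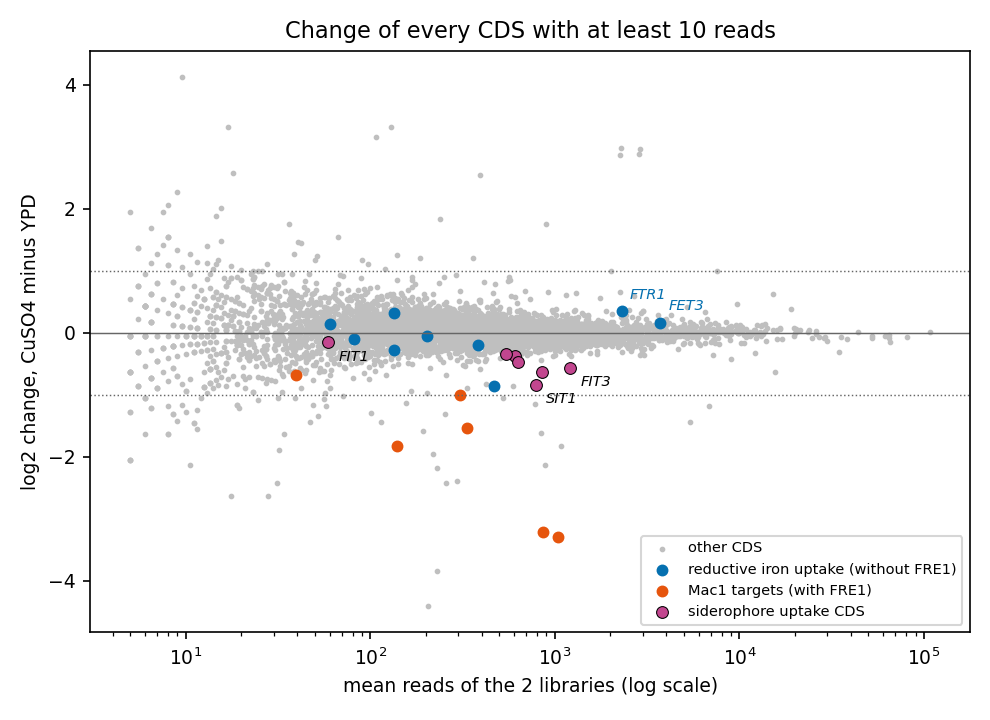
Log2 change (CuSO4 minus YPD) of each CDS with at least 10 reads against its mean reads in the 2 libraries (log axis); dotted lines mark 2-fold. The 7 siderophore uptake CDS (magenta) lie between -0.84 and -0.15, above the lower 2-fold line, past which 5 of the 6 Mac1 targets lie (orange, median -1.68), while *FTR1* and *FET3* lie above 0.

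For each of the 7, the CDS outside the group whose 2 levels were closest was found by Euclidean distance over the 2 libraries. *SIT1* was nearest to *LYS20*, a homocitrate synthase gene of lysine synthesis (log2 change -0.85, distance 0.18), and *ENB1* to the repressor gene *CUP9* (-0.82, distance 0.15). *ARN1* was nearest to *DAT1* (-0.48, distance 0.03), *ARN2* to *VRP1* (-0.32, distance 0.04) and *FIT2* to the purine synthesis gene *ADE57* (-0.27, distance 0.10). *FIT3*, in a sparse part of the range, was nearest to the serine hydroxymethyltransferase gene *SHM2* (-0.32, distance 0.24), while its own change was -0.57. *FIT1* was nearest to *RRG8* (-0.14, distance 0.003). With 2 libraries such closeness only says that the 2 levels are alike, and the changes can still differ, as for *FIT3*.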

How the data were processed

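The authors mapped RNAseq reads to R64-2-1 with HISAT2 (2.0.5), quantified annotated CDS in SeqMonk, scaled the libraries to the larger one, divided by CDS length in kb and deposited log2 values. For ChIPseq the authors mapped reads with Bowtie 2 (2.2.5), used MACS2 for peak calling, took out peaks judged artifactual and kept those of at least 2-fold enrichment. The 240 deposited peaks carry the pileup (a signal), the fold enrichment and the -log10 p-value, of which the fold and positions were used. The list is labelled for the ChIP and input samples together and was read as that of unstressed cells, as the study's text describes its peaks.

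Reads were recovered from the log2 values, in which a CDS without reads stands at 0.9 reads: 99.8% of the other values in each library lay within 0.01 of a whole number. A count of 0 allows up to 3 reads. Depth is 5749810 reads with CuSO4 and 5572698 in YPD. Changes are differences of the deposited values, with 95% Clopper-Pearson intervals on the read ratio. Intervals on a difference in change are exact conditional intervals on the odds ratio. Calls needed 2-fold and 20 reads in the higher library, list medians 10 reads in both together. No p-value is given. Symbols and sequences come from RefSeq R64 (6014 CDS matched, 6009 of them with the same start and end in both). Motifs were searched by exact match, copies with BLAST (2.17.0), and intervals came from SciPy (1.17.1). The intervals were tested on simulated data that held independent counting error only. That test therefore does not cover PCR copies or differences between cultures.

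Genes named are the 7 members, the CDS beside them, the CDS closest in both levels, *FET3*, *FTR1*, *AFT1*, *AFT2*, *ACT1* and *CUP1-1*, and from each list those past 2-fold, otherwise the extremes with at least 50 reads. *FET4*, *FRE3*, *GEX1*, *FLO1* and the *TIR* genes fall outside this rule and were picked with their values known. The members and lists were chosen with earlier results of these data known. Alternatives were other scalings, added reads, thresholds, windows and motifs.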

Additional observations from a re-analysis of the deposited data

How the results depend on the processing

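No paired analysis was possible because the design has no replicates and so no shared replicate numbers. Of 73 alternatives, 64 stayed within the counting interval of a value or within 1.5 times a count. Among them were all 29 for the change of a single gene, which all stayed below 0. These 29 rescaled the libraries, added reads or took off overlapping reads. Such steps were too small to reverse a sign, so they do not settle the direction of *FIT1*. The number of the 7 genes at least 2-fold lower (0) became 2 at 1.5-fold and, at a threshold chosen after seeing the data, 6 at 1.2-fold. The genes within 20 kb of a chromosome end (3) became 5 at 30 kb and 7 at 40 kb. Those with an upstream γH2A peak (0 within 1000 bp) became 2 within 2000 bp and 3 within 5000 bp. With GGCACCC in place of TGCACCC, the number with a motif upstream was 0 in place of 7. Without division by CDS length, 3 of 7 genes kept their place in the order of levels in each library. The scaling alternatives moved all changes by at most 0.0135 (centring on the median of each library). Depth limits *FIT1*, whose 57 and 61 reads allow changes from -0.69 to 0.40.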
